A study of Mus musculus with 12 samples.

Results

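The 10 immediate early genes followed here were compared across tumours of healthy and fatty liver: the AP-1 genes Fos, Fosb, Jun and Junb, the zinc finger genes Egr1, Egr2 and Egr3, and Atf3, Ier2 and Dusp1. They were taken by symbol from the deposited expression table, using rows whose platform annotation gives a single gene symbol, and the row with the highest mean where a gene has several. Each of the 10 had 1 such row, so the group is 10 of 22180 genes. All 10 lay above 4.93, the median of all values in the table and the limit used for testing, on all 12 arrays.

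Immediate early genes are transcribed within minutes of a signal reaching a cell and need no new protein for it. Growth factors, cytokines and stress act through the ERK kinases and related kinases on factors already in the nucleus, among them serum response factor at CArG boxes and the CREB and ATF proteins at cAMP response elements (CRE). FOS and JUN proteins pair to form the transcription factor AP-1, EGR proteins and ATF3 are transcription factors of their own, and DUSP1 is a phosphatase that switches the kinases off again.

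RNA came from mouse colorectal cancer that had been injected into the liver and was collected as tumour tissue. The 4 groups, each of 3 arrays and 3 mice per the series' design text, were healthy liver with vehicle, healthy liver with anti-VEGF, fatty liver with vehicle and fatty liver with anti-VEGF, an antiangiogenic treatment. The strain, age and sex of the mice, the cancer line, the anti-VEGF agent and its dose, and how the liver was made fatty are not stated in the labels. Values are log2 expression levels, so a difference of 1 is a doubling, and levels of different genes are not compared because probes differ.

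The arrays within a group were not equally alike. Vehicle arrays 1 and 3 of healthy liver differed by an SD of 0.163 over the 13286 tested genes, as did those of fatty liver, and the anti-VEGF arrays of healthy liver by 0.148 to 0.156; other pairs within groups differed by 0.391 to 0.636. Whether nearly identical arrays came from separate mice could not be told from the values, so n = 3 below counts arrays, and p-values over them may be too small. Counting each nearly identical set as 1 sample leaves 8 samples, and counts of limma calls are also given that way. The healthy liver anti-VEGF group is then 1 sample without a spread of its own, assumed to vary like the rest. Vehicle array 2 differed from arrays 1 and 3 by 0.634 and 0.636 in healthy liver and by 0.405 and 0.391 in fatty liver. Anti-VEGF array 3 of fatty liver differed from arrays 1 and 2 by 0.616 and 0.487, and these differed from each other by 0.402. Below, the arrays said to stand apart are vehicle array 2 of healthy liver and anti-VEGF array 3 of fatty liver. Xist, transcribed in female cells, was 8.10 to 10.58 on vehicle arrays 1 and 3 of both livers and at most 4.32 on the other 8, all anti-VEGF arrays among them. Of 10 epithelial tumour markers, 6 were below the limit on all 12 arrays, including Epcam and Vil1, while Krt8 (9.12 to 10.82) and Krt18 (6.47 to 8.36) were above it. Of 10 hepatocyte markers, 7 were below the limit on all 12 arrays, including Alb (3.24 to 4.07). Another 2 were above it on all 12 arrays, and Hnf4a was above it on some.

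The promoters of the members whose levels differed between livers are shown with the CRE core, because CREB and ATF proteins are among the factors that act on these genes. Promoter windows came from RefSeq, build GRCm38.p6, where 7 of the 10 members had an entry. The 250 bases before each start were searched on both strands for the CRE core TGACG, the full CRE TGACGTCA that contains it, the AP-1 site TGANTCA, the EGR site GCGNGGGCG, the TATA box TATAAA and, by name, the CArG box. In the sequences below the capitals mark the CRE core (CGTCA where it lies on the opposite strand) or the full CRE, the TATA box in Fos, and the CArG box and CRE core in Egr2. Jun, not called between livers, is shown for comparison and has no capitals, since none of the searched motifs was found in it. Its sequence holds tgacatca, which differs from the full CRE by a letter and was not searched for. Fosb was not called either, yet has the core 60 bases before its start, and is not printed. Whether the core goes with the differences between livers was not tested. Each sequence ends at the base before the start, except that of Egr2, which covers bases 79 to 50 before it.
Fos, chr12:85473740-85473889, plus strand: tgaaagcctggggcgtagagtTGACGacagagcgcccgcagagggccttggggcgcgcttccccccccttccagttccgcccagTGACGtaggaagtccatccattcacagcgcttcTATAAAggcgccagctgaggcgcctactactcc
Junb, chr8:84978749-84978898, minus strand: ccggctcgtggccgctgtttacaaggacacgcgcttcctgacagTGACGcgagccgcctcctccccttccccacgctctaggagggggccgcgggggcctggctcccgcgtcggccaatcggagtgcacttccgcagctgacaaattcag
Atf3, chr1:191183334-191183483, minus strand: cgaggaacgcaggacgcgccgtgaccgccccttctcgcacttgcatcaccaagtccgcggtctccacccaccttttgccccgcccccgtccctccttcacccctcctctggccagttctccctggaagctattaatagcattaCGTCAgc
Dusp1, chr17:26508473-26508672, minus strand: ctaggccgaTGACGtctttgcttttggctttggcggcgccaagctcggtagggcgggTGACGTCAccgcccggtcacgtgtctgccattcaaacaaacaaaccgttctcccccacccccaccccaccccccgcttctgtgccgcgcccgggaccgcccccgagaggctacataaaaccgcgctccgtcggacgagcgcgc
Egr2, chr10:67537790-67537819, plus strand: cctcagtCCATATATGGgcagcgaCGTCAc
Jun, chr4:95052223-95052372, minus strand: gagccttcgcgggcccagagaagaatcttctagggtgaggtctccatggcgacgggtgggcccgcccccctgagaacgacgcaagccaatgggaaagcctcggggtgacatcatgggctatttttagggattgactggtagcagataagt

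The CRE core was found in 6 of the 7 members, Fos, Fosb, Junb, Egr2, Atf3 and Dusp1, against 17.8% of all 32851 windows of this length. It began 129 and 66 bases before the start of Fos, 106 before that of Junb and 7 before that of Atf3, the last on the opposite strand. Dusp1 had it at 191 bases and again within a full CRE at 143 bases, a motif held by 1.55% of windows. The CArG box was found in Egr2 (1.47% of windows), the TATA box in Fos (12.4%), the EGR site in Fosb (4.7%) and the AP-1 site in none of the 7 (6.75%). Egr2 has 5 windows from different starts, and a gene was counted when any of its windows held the motif. These matches describe letters and not binding, and a site with other letters or beyond the 250 bases was not searched for. Egr1, Egr3 and Ier2 had no window, so nothing is said of their sites.

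The first comparison asks how the members differ between tumours of fatty and healthy liver. Under vehicle, Fos, Junb, Egr2, Atf3 and Dusp1 were higher in fatty liver, by 0.40 to 1.56 on the log2 scale, and none was called lower. Under anti-VEGF, Fos, Junb, Egr2 and Atf3 were higher, by 0.59 to 1.47, and again none was called lower. Jun, Fosb and Egr3 passed in neither, nor did Egr1 and Ier2, although the Egr1 differences of 1.97 and 2.28 were the largest of the 10. Calls are limma's with a Benjamini-Hochberg adjusted p under 0.05 over all 13286 genes.

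Under vehicle 5 of 10 members were called, beside 49.6% of all tested genes, so the share called is no result about these genes. All 5 were higher, a direction that 19.2% of tested genes took, while 30.4% were called lower. The members' median difference was 0.71, beside -0.12 over all tested genes. Under anti-VEGF 4 of 10 were called, all higher, beside 45.8% of genes called in either direction, 18.2% higher and 27.6% lower, and the medians were 0.45 and -0.13. With the nearly identical arrays averaged, 0 of 10 members passed in either comparison in limma (721 of 13286 genes passed under vehicle and 510 under anti-VEGF), and the smallest adjusted p of a member was 0.0627, for Atf3 under vehicle. Without anti-VEGF array 3 of fatty liver, 7 members passed in each comparison, all higher, beside 54.6% of genes called under vehicle (20.5% higher) and 56.3% under anti-VEGF (19.9% higher). That array is in neither vehicle group, so the vehicle differences stayed the same and only the spread estimated over all groups changed. Without anti-VEGF array 1 of fatty liver the anti-VEGF count was 2, the lowest of any fit leaving out 1 array, beside 35.5% of genes.

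Markers of several cell types also differed between livers. Beside the counts below stand the shares of all tested genes, 19.2% higher and 30.4% lower under vehicle, and 18.2% and 27.6% under anti-VEGF. The mean log2 level of 12 macrophage genes was 9.52 to 10.46 with vehicle and 9.35 to 9.40 with anti-VEGF in healthy liver, and 11.53 to 11.58 and 11.28 to 11.63 in fatty liver. All 12 were above the limit on all arrays, and 11 of 12 were higher in fatty liver under each treatment (5 and 8 with nearly identical arrays averaged). Of 12 T and NK cell genes, 6 were above the limit on all arrays, and of these 6 were higher under vehicle and 5 under anti-VEGF. The other 6, above it on some arrays only, passed in 6 and 4 cases. With averaging 2 and 0 of the 12 were higher. The T and NK list had means of 5.14 to 5.83 and 5.05 to 5.21 in healthy liver and 8.19 to 8.80 and 5.72 to 8.25 in fatty liver. Of 10 neutrophil genes 7 were tested and 3 were higher under each treatment (1 and 2 with averaging). Elane and Mpo were below the limit throughout, and the list means were 5.06 to 5.53 and 4.90 to 4.94 in healthy and 6.84 to 7.40 and 5.53 to 8.61 in fatty liver. Some markers of other cells were lower: of 10 fibroblast and matrix genes 3 were lower under each treatment (1 and 0 with averaging) and none higher. These were Pdgfra (fell by 1.22 and fell by 0.89), Pdgfrb (fell by 1.22 and fell by 0.73) and Acta2 (fell by 0.76 and fell by 1.01). The list as a whole did not fall under anti-VEGF: its median difference was -0.98 under vehicle and 0.93 under anti-VEGF. Its means were 7.95 to 10.48 and 7.87 to 7.98 in healthy and 7.70 to 9.11 and 8.02 to 9.32 in fatty liver (vehicle and anti-VEGF). Of 4 tested epithelial genes 1 was higher and 2 lower under each treatment. The higher one was Cdh1, whose anti-VEGF call was lost in 4 of 12 fits that left out 1 array. The lower ones were Krt8 (fell by 0.84 and fell by 0.87) and Krt18 (fell by 0.88 and fell by 1.28), and none of the 4 passed with averaging. The 3 fibroblast genes, Krt8 and Krt18 kept their calls in all 12 fits that left out 1 array. Of the 9 tested endothelial genes 1 was higher and 1 lower under vehicle, and 2 were higher and 0 lower under anti-VEGF (0 with averaging). Of 3 tested hepatocyte genes 0 were called under vehicle, and 2 were lower under anti-VEGF, Apoa1 and Hnf4a. Leaving out 1 array at a time, their calls were lost in 5 and 7 of 12 fits. The part of these cells in the members' differences was not tested. In bulk tissue more cells of a type and more RNA per cell cannot be told apart.

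**Figure D1:**
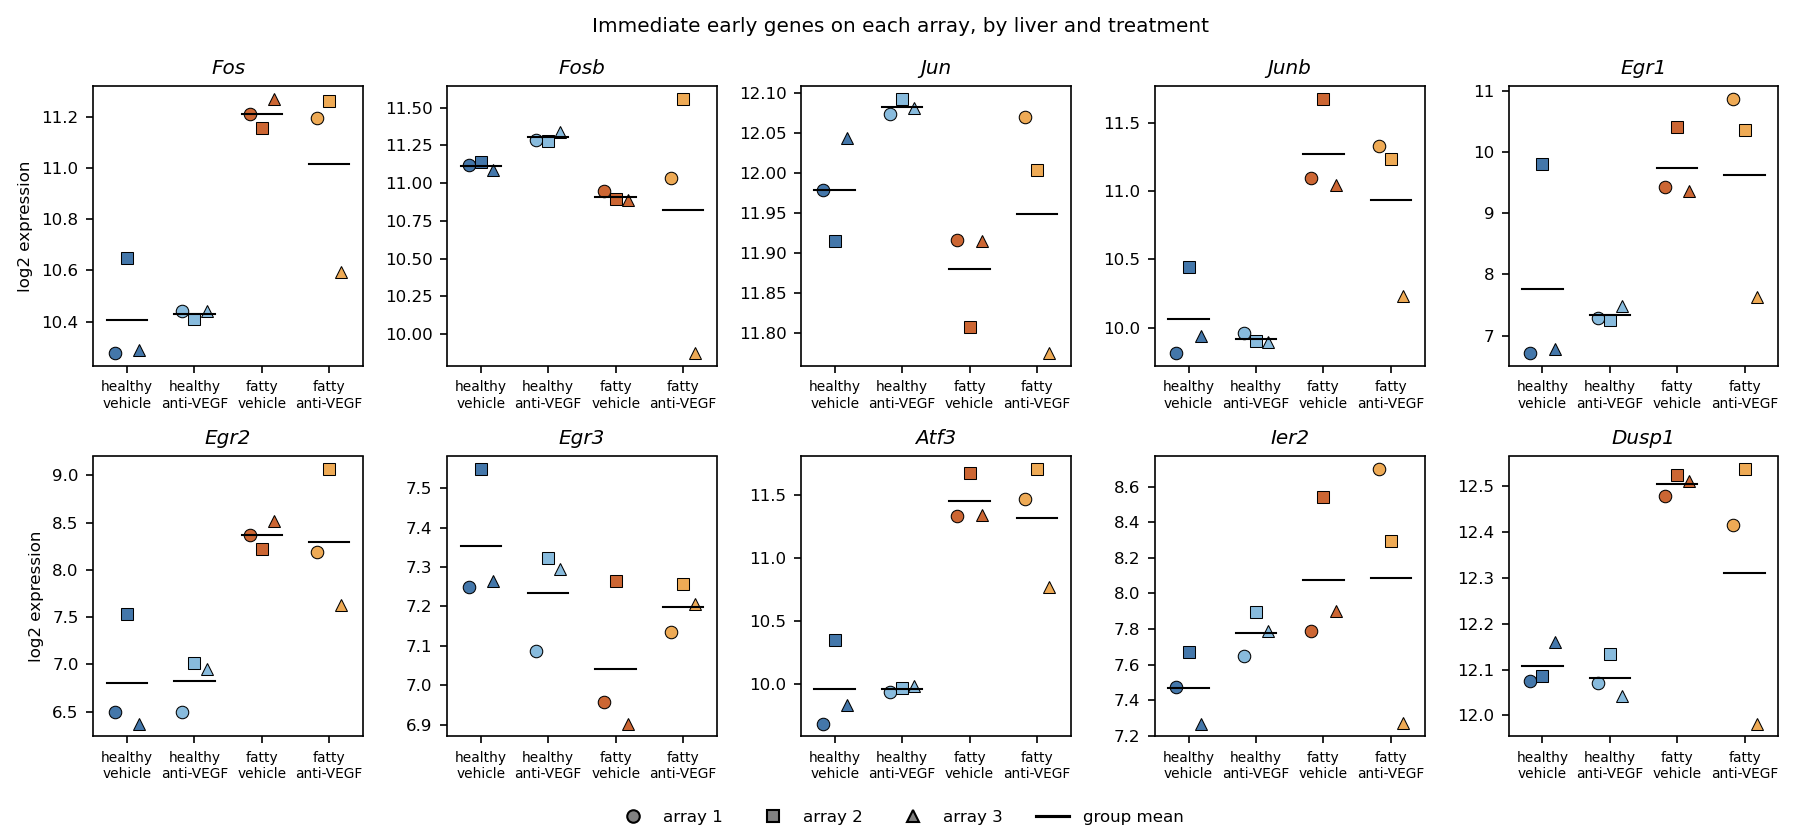
Log2 expression of each of the 10 members (vertical axes, 1 panel and 1 scale per gene) on the 3 arrays of each group; circles, squares and triangles are arrays 1, 2 and 3, and lines are group means. Egr2 and Atf3 are the members whose 6 fatty liver arrays all lie above all 6 healthy liver arrays, and vehicle array 2 of healthy liver and anti-VEGF array 3 of fatty liver lie towards the other liver for several genes.

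Fos encodes the AP-1 subunit that pairs with JUN proteins and cannot pair with itself. Its levels in healthy liver were 10.28, 10.65 and 10.29 with vehicle and 10.44, 10.41 and 10.44 with anti-VEGF. In fatty liver they were 11.21, 11.16 and 11.27 with vehicle and 11.20, 11.26 and 10.60 with anti-VEGF. Within each treatment all fatty liver arrays lay above all healthy liver arrays, and the lowest fatty liver array, anti-VEGF array 3, lay just under the highest healthy one, vehicle array 2. Under vehicle the mean went from 10.41 ± 0.21 to 11.21 ± 0.06 (SD, n = 3), a difference of 0.81 (SE 0.16, adjusted p = 0.00325), or 1.75-fold. Under anti-VEGF it went from 10.43 ± 0.02 to 11.02 ± 0.37, a difference of 0.59 (SE 0.16, adjusted p = 0.0158). The vehicle call held in all 12 fits that left out 1 array and in 10 of the 12 other alternatives. It was lost with nearly identical arrays averaged and without the 4 arrays high in Xist. The anti-VEGF call did not hold once anti-VEGF array 1 (adjusted p = 0.0574) or 2 (0.0637) of fatty liver was left out, in a range of 7.85e-07 to 0.290 over its alternatives.

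Fosb, a FOS family member known for a long-lived splice form in neurons, did not follow Fos. It was 11.12, 11.14 and 11.09 with vehicle and 11.29, 11.28 and 11.34 with anti-VEGF in healthy liver. The fatty liver arrays read 10.95, 10.89 and 10.89 with vehicle and 11.03, 11.56 and 9.87 with anti-VEGF. The 3 vehicle arrays of fatty liver lay below the 3 of healthy liver by a small margin, and the fatty liver anti-VEGF arrays covered both sides of every other group. The differences between livers were -0.21 (SE 0.31, adjusted p = 0.612) under vehicle and -0.48 (SE 0.31, adjusted p = 0.231) under anti-VEGF. Without fatty liver anti-VEGF array 2 the latter was -0.85 with an adjusted p of 0.0324, and without array 3 it was -0.01, in a range of adjusted p from 0.0324 to 0.970 over the alternatives.

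Jun, the AP-1 subunit that can pair with itself and with FOS proteins, was the steadiest of the 4 AP-1 members in these tumours. It was 11.98, 11.92 and 12.04 with vehicle and 12.07, 12.09 and 12.08 with anti-VEGF in healthy liver. Fatty liver values were 11.92, 11.81 and 11.91 with vehicle and 12.07, 12.003 and 11.77 with anti-VEGF. The vehicle groups overlapped, and under anti-VEGF the fatty liver arrays all lay below the healthy ones, array 1 by less than the last digit printed. The differences were -0.10 (95% interval -0.29 to 0.09, adjusted p = 0.365) under vehicle and -0.13 (-0.33 to 0.06, adjusted p = 0.230) under anti-VEGF. Both intervals end below the Fos differences of 0.81 and 0.59.

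Junb encodes a JUN protein that forms AP-1 of a different activity and can restrain JUN. Its levels in healthy liver were 9.81, 10.45 and 9.94 with vehicle and 9.96, 9.91 and 9.90 with anti-VEGF. In fatty liver they were 11.09, 11.67 and 11.04 with vehicle and 11.33, 11.24 and 10.23 with anti-VEGF. Fatty liver arrays lay above healthy ones within each treatment, while anti-VEGF array 3 of fatty liver lay below vehicle array 2 of healthy liver. Junb rose from 10.07 ± 0.34 to 11.27 ± 0.35 (SD, n = 3) under vehicle, a difference of 1.20 (SE 0.29, adjusted p = 0.00666), or 2.30-fold. This call held in all 12 fits that left out 1 array and in 10 of the 12 other alternatives. It was lost with nearly identical arrays averaged and without the 4 arrays high in Xist. Junb rose from 9.92 ± 0.03 to 10.93 ± 0.61 under anti-VEGF, a difference of 1.01 (SE 0.29, adjusted p = 0.0165). This second call did not hold once anti-VEGF array 1 (adjusted p = 0.0636) or 2 (0.0650) of fatty liver was left out, in a range of 1.01e-06 to 0.279 over its alternatives.

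Egr1, a zinc finger factor that binds GC-rich sites in many promoters, varied most. In healthy liver it was 6.71, 9.81 and 6.77 with vehicle and 7.29, 7.25 and 7.48 with anti-VEGF. In fatty liver it was 9.42, 10.41 and 9.37 with vehicle and 10.87, 10.36 and 7.63 with anti-VEGF. Vehicle array 2 of healthy liver stood about 3 log2 units above its group and above 3 of the 6 fatty liver arrays, so the vehicle groups overlapped. Anti-VEGF array 3 of fatty liver stood far below its group, yet above the 3 healthy liver anti-VEGF arrays. The means were 7.76 ± 1.77 and 7.34 ± 0.12 in healthy liver and 9.74 ± 0.59 and 9.62 ± 1.74 in fatty liver (vehicle and anti-VEGF, SD, n = 3).

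The Egr1 difference between livers was 1.97 (SE 0.92, 95% interval -0.06 to 4.004, adjusted p = 0.0964) under vehicle and 2.28 (SE 0.92, 0.25 to 4.31, adjusted p = 0.0635) under anti-VEGF, and neither passed. Without vehicle array 2 of healthy liver the vehicle difference was 2.99 (adjusted p = 0.00898), and without anti-VEGF array 3 of fatty liver the anti-VEGF difference was 3.28 (adjusted p = 0.00693). Over all alternatives the adjusted p ran from 2.98e-05 to 0.789 under vehicle and from 5.27e-06 to 0.390 under anti-VEGF. With all 12 arrays kept, both differences passed with array weights (adjusted p = 2.98e-05 and 5.27e-06). The replicate block made the anti-VEGF difference of 2.28 pass (adjusted p = 0.0390).

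The array with high Egr1 in healthy liver was also high in vessel and matrix genes. On vehicle array 2 of healthy liver the endothelial genes averaged 8.90, where arrays 1 and 3 gave 5.87 and 5.88, and the fibroblast and matrix genes 10.48, where these gave 8.04 and 7.95. Its macrophage mean was 10.46, against 9.55 and 9.52. Anti-VEGF array 3 of fatty liver, low in Egr1, had a T and NK cell mean of 5.72, against 8.25 and 7.87 on the other 2, and a neutrophil mean of 5.53, against 8.61 and 6.51. The highest Egr1 level, on anti-VEGF array 1 of fatty liver, came with the highest neutrophil mean and a fibroblast and matrix mean of 9.32. Array 2 of that group, with Egr1 at 10.36, had lower means: 6.51 for neutrophil, 8.02 for fibroblast and matrix and 6.29 for endothelial genes. The fibroblast and matrix mean of array 3, low in Egr1, was 8.27, above that of array 2. The part of these cells in Egr1 was not tested.

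**Figure D2:**
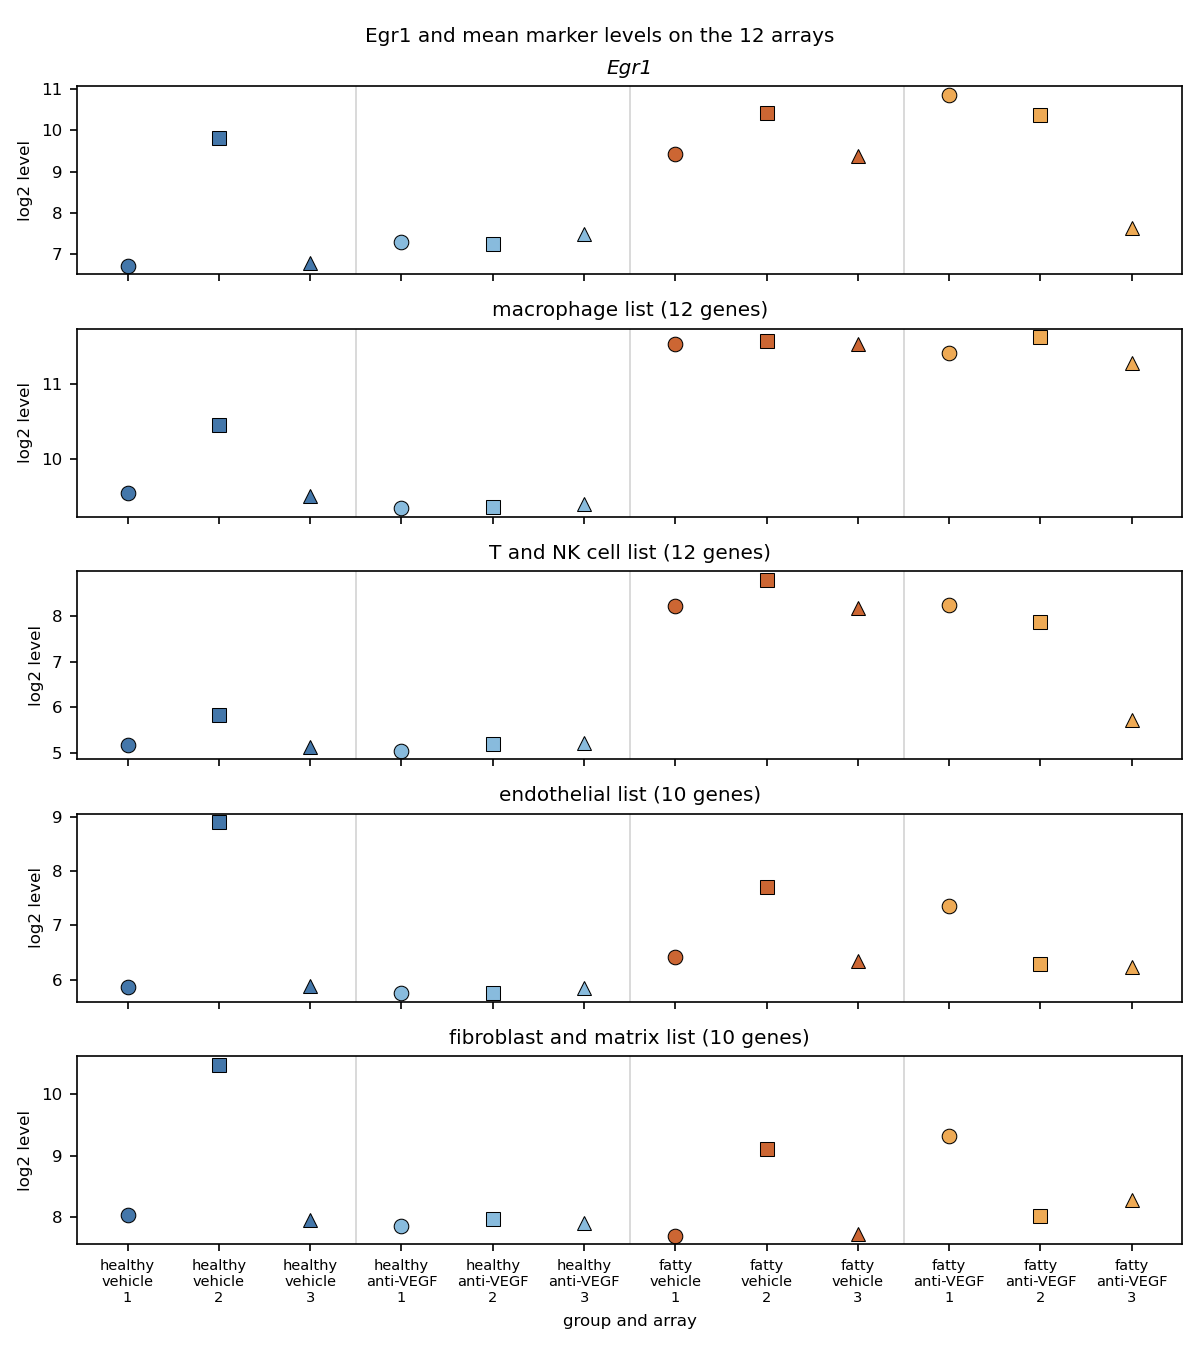
Egr1 (top) and the mean log2 level of the macrophage, T and NK cell, endothelial, and fibroblast and matrix marker lists (lower panels) on each of the 12 arrays, ordered by group and array number. Vehicle array 2 of healthy liver is high in Egr1 (9.81), endothelial (8.90) and matrix genes (10.48), and anti-VEGF array 3 of fatty liver is low in Egr1 (7.63) and in T and NK cell genes (5.72) beside its group.

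Egr2, a relative of Egr1 known in T cells, macrophages and nerve sheath cells, separated the livers on every array. It was 6.50, 7.53 and 6.37 with vehicle and 6.50, 7.01 and 6.95 with anti-VEGF in healthy liver. The fatty liver arrays read 8.37, 8.22 and 8.51 with vehicle and 8.18, 9.06 and 7.63 with anti-VEGF. The lowest fatty liver array, anti-VEGF array 3, still lay above the highest healthy liver array, vehicle array 2. The differences were 1.56 (SE 0.37, adjusted p = 0.00642) under vehicle, or 2.96-fold, and 1.47 (SE 0.37, adjusted p = 0.00956) under anti-VEGF, or 2.77-fold. Both calls held in all 12 fits that left out 1 array. With nearly identical arrays averaged neither passed (adjusted p = 0.135 and 0.223), and without the 4 arrays high in Xist the vehicle difference was 0.68 (adjusted p = 0.481). The ranges over all alternatives were 6.26e-06 to 0.481 and 1.59e-06 to 0.223.

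Egr3, another zinc finger gene of the family, did not rise with Egr2. It was 7.25, 7.55 and 7.27 with vehicle and 7.09, 7.32 and 7.30 with anti-VEGF in healthy liver, and 6.96, 7.26 and 6.90 with vehicle and 7.13, 7.26 and 7.21 with anti-VEGF in fatty liver. The groups overlapped in both comparisons. The difference was -0.31 under vehicle (SE 0.12, adjusted p = 0.0520) and -0.04 under anti-VEGF (SE 0.12, adjusted p = 0.822). With the replicate number as a block, a pairing that the labels do not state, the vehicle difference of -0.31 passed (adjusted p = 0.0186). Without vehicle array 2 of fatty liver it was -0.42 and passed (adjusted p = 0.0211), in a range of 0.00313 to 0.302 over its alternatives.

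Atf3, a bZIP factor of the stress response that binds CRE and AP-1 sites and often represses, had the smallest p of the 10 in both comparisons. It was 9.68, 10.35 and 9.83 with vehicle and 9.93, 9.96 and 9.98 with anti-VEGF in healthy liver. Fatty liver values were 11.33, 11.67 and 11.34 with vehicle and 11.47, 11.70 and 10.77 with anti-VEGF. All 6 fatty liver arrays lay above all 6 healthy liver arrays, which was so for 2 members, Atf3 and Egr2, and for 14.3% of tested genes. Atf3 rose from 9.95 ± 0.35 to 11.45 ± 0.20 under vehicle (SD, n = 3), a difference of 1.49 (SE 0.23, adjusted p = 0.00087), or 2.81-fold. Under anti-VEGF it rose from 9.96 ± 0.03 to 11.31 ± 0.48, a difference of 1.35 (SE 0.23, adjusted p = 0.00137), or 2.55-fold. Both calls held in all 12 fits that left out 1 array; with nearly identical arrays averaged the differences were 1.45 (adjusted p = 0.0627) and 1.35 (adjusted p = 0.129).

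Ier2 encodes a short-lived nuclear protein induced by growth factors. It was 7.47, 7.67 and 7.27 with vehicle and 7.65, 7.89 and 7.79 with anti-VEGF in healthy liver. In fatty liver it was 7.79, 8.54 and 7.90 with vehicle and 8.70, 8.30 and 7.27 with anti-VEGF. The vehicle groups did not overlap, with fatty liver higher, while anti-VEGF array 3 of fatty liver lay below all 3 healthy liver anti-VEGF arrays. The differences of 0.61 (SE 0.32, adjusted p = 0.134) and 0.31 (SE 0.32, adjusted p = 0.440) did not pass. Without that array they were 0.61 (adjusted p = 0.0282) and 0.72 (adjusted p = 0.0212), in ranges of 0.00532 to 0.395 and 0.00378 to 0.987 over the alternatives. The array is in neither vehicle group, so the vehicle difference itself did not change, only the spread estimated over all groups.

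Dusp1, the phosphatase that inactivates p38, JNK and ERK, was narrow within 3 of the 4 groups. It was 12.08, 12.09 and 12.16 with vehicle and 12.07, 12.13 and 12.04 with anti-VEGF in healthy liver. The fatty liver arrays read 12.48, 12.52 and 12.51 with vehicle and 12.42, 12.54 and 11.98 with anti-VEGF. Of the fatty liver arrays, 5 lay above every healthy liver array, and anti-VEGF array 3 lay below all of them. Under vehicle the difference was 0.40 (SE 0.12, adjusted p = 0.0213), or 1.32-fold. That call was lost without vehicle array 1 of healthy liver (adjusted p = 0.0651), or without vehicle array 2 (0.0594) or 3 (0.0526) of fatty liver, in a range of 0.000157 to 0.299 over the alternatives. Under anti-VEGF the difference was 0.23 (SE 0.12, adjusted p = 0.146), and 0.39 without anti-VEGF array 3 of fatty liver (adjusted p = 0.00168, range 4.62e-05 to 0.554).

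The arrays themselves divide the members. Vehicle array 2 of healthy liver was the highest of the 6 healthy liver arrays for 6 members, Fos, Junb, Egr1, Egr2, Egr3 and Atf3. Anti-VEGF array 3 of fatty liver was the lowest of the 6 fatty liver arrays for 9 members, all but Egr3. On anti-VEGF array 2 of fatty liver all 10 members lay above their own mean over the 12 arrays, and on anti-VEGF array 3 of that group 2 did, Egr2 and Atf3. Under vehicle 7 members did not overlap between livers, beside 60.8% of tested genes: 6 with fatty liver higher (23.6% of genes) and Fosb lower (37.2%). Under anti-VEGF 6 did not overlap, beside 58.5%: 5 with fatty liver higher (21.9%) and Jun lower (36.6%).

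**Figure D3:**
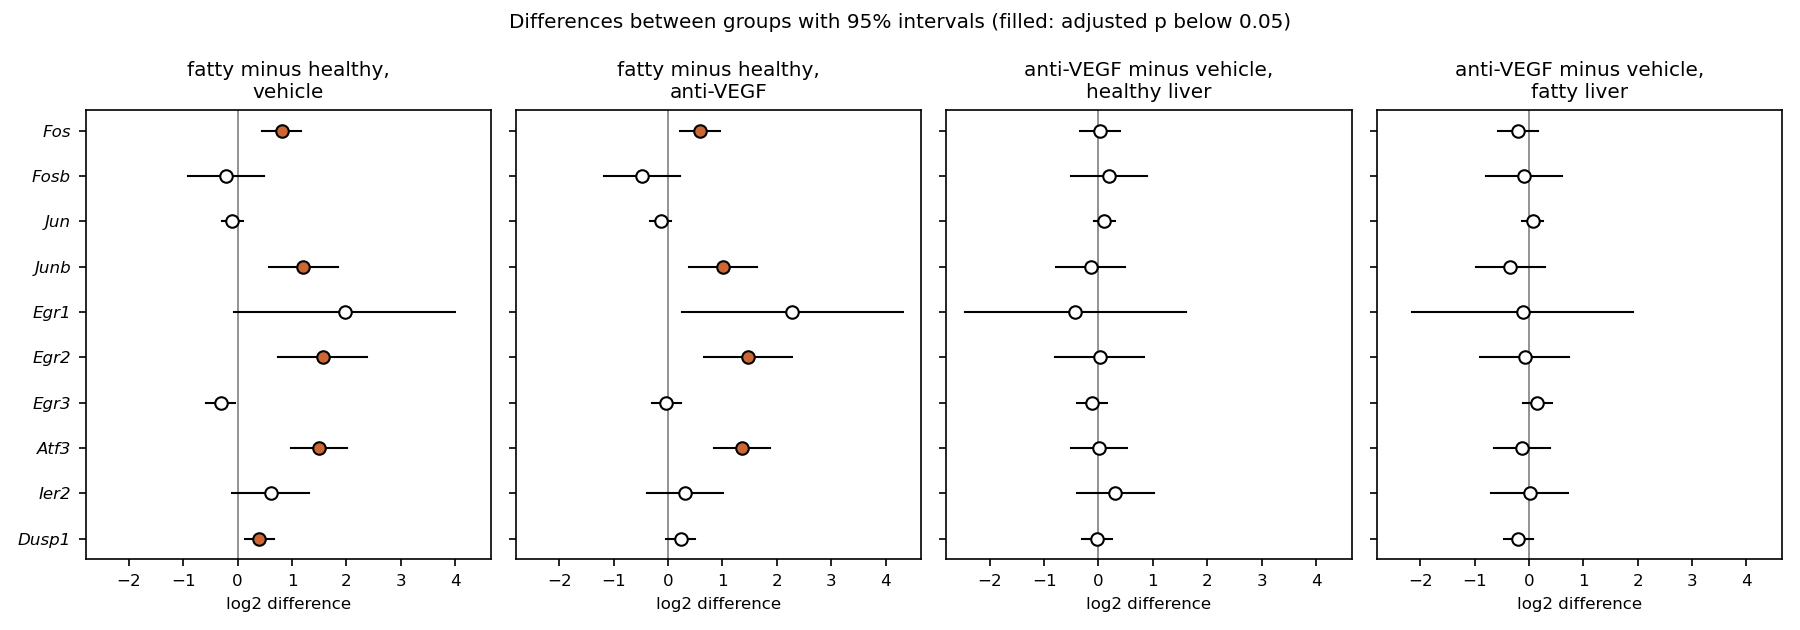
Log2 differences of the 10 members in 4 comparisons (horizontal axis) with 95% intervals from limma; filled points have an adjusted p under 0.05. Filled points are Fos, Junb, Egr2, Atf3 and Dusp1 between livers under vehicle and the first 4 of these under anti-VEGF, and no point is filled between treatments.

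The second comparison asks whether anti-VEGF changed the members within each liver. None of the 10 passed in limma in healthy or fatty liver, and none had an unadjusted p under 0.05; the smallest were 0.262 and 0.145. Over all tested genes 0% passed in healthy liver, where 1118 genes (8.41%) had an unadjusted p under 0.05, and 0.00753% in fatty liver, a single gene, where 778 (5.86%) did. In healthy liver the members' differences ran from -0.42 for Egr1 to 0.31 for Ier2. In fatty liver they ran from -0.34 for Junb to 0.16 for Egr3. After averaging nearly identical arrays 0 members and 0 genes passed in either liver. These counts over all genes moved with the fit: with array weights 12.5% of genes passed in healthy liver and 13.9% in fatty liver. Of the members 0 passed in healthy liver with these weights and 2 in fatty liver, Fosb at 0.58 (adjusted p = 0.0234) and Egr3 at 0.32 (adjusted p = 0.0304). Without anti-VEGF array 1 or 3 of fatty liver 41 and 31 genes passed in healthy liver, and 11 and 0 in fatty liver, with 0 members in each.

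The precision of these differences varied by gene. For Fos the 95% interval of anti-VEGF minus vehicle was -0.34 to 0.39 in healthy liver and -0.56 to 0.17 in fatty liver. For Jun it was -0.09 to 0.30 and -0.12 to 0.26. For Egr1 it was -2.46 to 1.61 and -2.15 to 1.92, wide enough to hold a fall of the size of the 1.97 between livers under vehicle. Its point estimate turned with 1 array: in healthy liver it was -0.42, and 0.60 without vehicle array 2 (adjusted p = 0.957), and in fatty liver it was -0.11, and 0.88 without anti-VEGF array 3 (adjusted p = 1.00); over all alternatives the adjusted p ran from 0.328 to 1.00 and from 0.104 to 1.00.

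Fosb and Jun did not overlap between treatments in healthy liver. All 3 anti-VEGF arrays lay above all 3 vehicle arrays, by 0.19 in the mean for Fosb (adjusted p = 0.940) and 0.10 for Jun (adjusted p = 0.824). Of all tested genes 24.8% did not overlap there, 13.1% with anti-VEGF higher, in groups that hold 3 and 2 nearly identical arrays. In fatty liver all 10 members overlapped, where 8.06% of tested genes did not (3.07% with anti-VEGF higher and 4.99% lower). The 4 arrays high in Xist are all on the vehicle side, and without them 0 members passed between treatments in either liver in limma, while 754 genes did in healthy liver (55 higher and 699 lower) and 0 in fatty liver. That fit leaves 1 array in each vehicle group, assumed to vary like the rest.

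The difference between livers was also compared between treatments. The interaction, the liver difference under anti-VEGF minus that under vehicle, was called for 0 of 10 members and for 0% of tested genes in limma, where 677 genes (5.1%) and 0 members had an unadjusted p under 0.05. After averaging nearly identical arrays 0 members and 0 genes were called, and with array weights 0 members and 11.1% of genes. The members' interactions ran from -0.29 for Ier2 to 0.31 for Egr1 (95% interval -2.57 to 3.19), and the smallest unadjusted p was 0.135, for Egr3. So Dusp1, called under vehicle only, was not shown to differ between treatments (interaction -0.17, 95% interval -0.55 to 0.22, adjusted p = 0.979). The liver comparisons share no arrays with each other.

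Beyond the members, the other AP-1 subunits and bZIP partners held 15 genes, of which 13 were tested. Under vehicle 5 were higher and 1 lower in fatty liver, and under anti-VEGF 3 were higher and 0 lower, with median differences of 0.36 and 0.25. The shares of all tested genes were 19.2% higher and 30.4% lower under vehicle, and 18.2% and 27.6% under anti-VEGF. Batf, Batf2 and Batf3, which pair with JUN proteins and are known in lymphocytes and dendritic cells, were higher under both treatments. Batf rose by 1.61 (SE 0.19, adjusted p = 0.000233) and 1.83 (SE 0.19, adjusted p = 7.73e-05). The healthy liver means of Batf3, 4.83 and 4.72, lay below the limit, so its rise is given against the limit as at least 1.46 and 1.20 on the log2 scale (adjusted p = 0.000268 and 0.000347). Crem, which encodes activators and repressors at CRE sites, rose by 0.59 under vehicle (SE 0.16, adjusted p = 0.0142). Fosl2, a FOS family gene, rose by 0.64 under vehicle and differed by 0.60 under anti-VEGF (SE 0.24, adjusted p = 0.0620). The single lower gene was Jdp2, named after its value was seen, which encodes a repressor partner of JUN (fell by 0.36); it did not pass without vehicle array 1 or 3 of healthy liver or vehicle array 2 or 3 of fatty liver. The vehicle call of Fosl2 was lost in 7 of the 12 fits that left out 1 array, while those of the Batf genes and Crem held in all 12. The anti-VEGF count of higher genes was 7 without anti-VEGF array 3 of fatty liver, and with nearly identical arrays averaged 2 were higher in each comparison.

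A wider list of 40 other immediate early genes had 39 tested. In fatty liver 18 were higher and 5 lower under vehicle, and 16 higher and 6 lower under anti-VEGF, with median differences of 0.52 and 0.42. Among all tested genes 19.2% were higher and 30.4% lower under vehicle, and 18.2% and 27.6% under anti-VEGF. Gadd45b, which activates a stress kinase cascade, rose by 1.84 (SE 0.28, adjusted p = 0.000785) and 1.77 (SE 0.28, adjusted p = 0.000881). Zfp36l1, which promotes the decay of AU-rich messages, rose by 0.99 and 1.13 (SE 0.16 each). Cebpb, a bZIP factor of inflammatory responses, rose by 1.29 (SE 0.21) and 1.08, and Gadd45g by 0.88 under each treatment (SE 0.14). The EGF receptor ligand gene Hbegf fell by 0.65 under vehicle and by 1.21 under anti-VEGF (SE 0.13, adjusted p = 7.55e-05 for the latter). Ccn1, a matrix protein gene driven by serum response factor and YAP, fell by 1.04 under vehicle and by 1.54 under anti-VEGF (SE 0.20, adjusted p = 0.000294 for the latter). The anti-VEGF count of higher genes went to 11 when anti-VEGF array 2 of fatty liver was left out and to 24 when array 3 was. With nearly identical arrays averaged, 1 was higher and 0 lower under vehicle, and 0 higher and 1 lower under anti-VEGF.

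Upstream, the list of the ERK cascade and serum response factor had 18 of 24 genes tested, and it divided in both directions. Under vehicle 3 were higher and 5 lower, and under anti-VEGF 4 were higher and 3 lower, with medians of -0.07 and 0.01. Of all tested genes 19.2% and 30.4% were called higher and lower under vehicle, and 18.2% and 27.6% under anti-VEGF. Such counts are no result about the list. Grb2, the adaptor between receptors and RAS, rose by 0.81 (SE 0.13, adjusted p = 0.00109) and 0.78 (SE 0.13, adjusted p = 0.00127). The coactivator gene Mrtfa rose by 0.35 and 0.31 (SE 0.09 each), whereas its relative Mrtfb fell by 0.40 and by 0.31 (SE 0.11 each). Elk4, a partner of serum response factor, fell by 0.44 and by 0.40 (SE 0.13 each), and Srf itself fell by 0.29 and by 0.40 (SE 0.09 each, adjusted p = 0.00661 for the latter). The kinase gene Araf rose by 0.25 and 0.35 (SE 0.08 each). The other calls, named after their values were seen, were the JNK genes Mapk8 and Mapk9, which fell by 0.31 and fell by 0.25 under vehicle, and the p38 gene Mapk14, higher under anti-VEGF by 0.33. Of these calls, those of Grb2 under both treatments, Mrtfa under vehicle and Araf and Srf under anti-VEGF held in all 12 fits that left out 1 array. Mrtfa under anti-VEGF was lost in 1 fit, without anti-VEGF array 2 of healthy liver, Mrtfb under anti-VEGF in 9, and each of the others in 3 to 5. The vehicle count of lower genes was 0 without vehicle array 1 or without vehicle array 3 of healthy liver. The anti-VEGF count of lower genes was 1 without any 1 of the 3 healthy liver anti-VEGF arrays or without array 1 or 2 of fatty liver anti-VEGF. With nearly identical arrays averaged none passed in either comparison.

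Feedback inhibitors other than Dusp1 also went both ways: of 16 genes, all tested, 4 were higher and 6 lower under each treatment, with medians of -0.14 and -0.02. All tested genes again gave 19.2% higher and 30.4% lower under vehicle, and 18.2% and 27.6% under anti-VEGF. With 16 genes these counts are no result about the list either. Spry2 and Spry4, Sprouty proteins that restrain receptor tyrosine kinases, were lower. Spry4 fell by 1.10 (SE 0.18, adjusted p = 0.00103) and 0.91 (SE 0.18, adjusted p = 0.00283), and Spry2 by 0.50 and 0.86 (SE 0.09 each). The phosphatase gene Dusp3 rose by 0.80 and 0.92 (SE 0.12 each), and Dusp2, a nuclear phosphatase known in lymphocytes, rose by 1.87 under vehicle (SE 0.33, adjusted p = 0.00173) and 1.58 under anti-VEGF. Dusp10, a phosphatase for JNK and p38, fell by 0.46 under vehicle and by 0.77 under anti-VEGF (SE 0.15, adjusted p = 0.00315 for the latter). The remaining lower genes, named after their values were seen, were Dusp7 (fell by 0.51 and fell by 0.37), Dusp4 (fell by 0.42 and fell by 0.72) and Spred2, a Sprouty-related inhibitor (fell by 0.46 and fell by 0.34). The remaining higher genes, also named after their values were seen, were Nab1, a corepressor of EGR proteins (0.61 and 0.47), Dusp5 under vehicle (1.02) and Nab2 under anti-VEGF (0.38). Leaving out 1 array at a time, the Nab1 calls were lost in 2 and 7 of 12 fits, that of Nab2 in 9 and the vehicle call of Dusp10 in 5. The calls of Dusp4 were lost in 8 and 0 fits, of Dusp7 in 0 and 5 and of Spred2 in 1 and 10, whereas those of Spry2, Spry4, Dusp2, Dusp3 and Dusp5 and the anti-VEGF call of Dusp10 held in all 12. The vehicle count of lower genes was 3 without vehicle array 2 of fatty liver, and the anti-VEGF count of higher genes fell to 2 without any of 6 single arrays. With nearly identical arrays averaged, 1 gene passed, lower under anti-VEGF. Between treatments and in the interaction, no gene of these 4 lists passed.

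**Figure D4:**
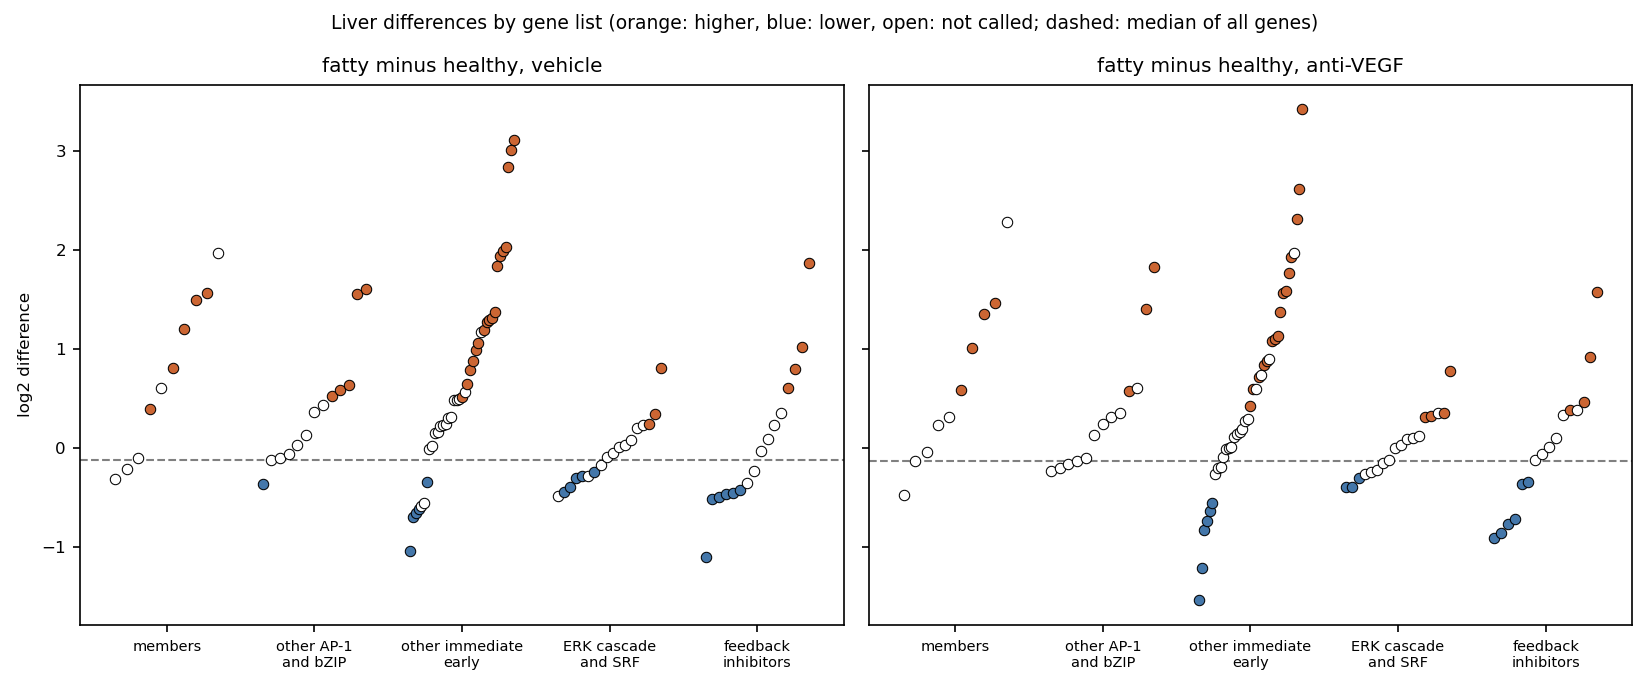
Log2 difference of fatty minus healthy liver (vertical axis) for each tested gene of the members and of 4 related lists, ordered within a list by its value, under vehicle (left) and anti-VEGF (right). Orange points passed as higher, blue as lower and open points did not pass, and the dashed line is the median of all tested genes (-0.12 and -0.13). Under vehicle all 4 related lists have points of both colours.

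Genes with the profile most like that of Fos, Jun and Egr1 were sought among 13276 tested genes that are no members. Each profile over the 12 arrays was centred on its mean, and likeness was the mean absolute difference between profiles in log2 units. For Fos the nearest were the microRNA gene Mir692-1 (0.077), Sft2d1, a vesicle transport gene (0.084), and Rbpj, the DNA-binding factor of Notch signalling (0.085), where the median over all genes was 0.481. For Jun they were Jund, which encodes the remaining JUN protein (0.046), the ribosomal gene Rplp0 (0.049) and the kinase gene Camk2d (0.049), with a median of 0.208; a flat profile is near to any other flat one. For Egr1 they were the neutrophil chemokine gene Cxcl2 (0.302), the cytokine receptor gene Csf2rb2 (0.331) and the angiotensin-converting enzyme gene Ace (0.333), with a median of 1.48.

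Cxcl2 shared the 2 outlying arrays of Egr1. It was 7.96, 9.90 and 7.91 with vehicle and 8.52, 8.46 and 8.50 with anti-VEGF in healthy liver, and 11.17, 11.55 and 11.20 with vehicle and 11.51, 11.38 and 9.05 with anti-VEGF in fatty liver. It was high on vehicle array 2 of healthy liver and low on anti-VEGF array 3 of fatty liver beside their groups. Unlike Egr1, it passed between livers, by 2.72 (SE 0.65, adjusted p = 0.00690) and 2.15 (SE 0.65, adjusted p = 0.0214). These genes were picked for their likeness over the same arrays, and the difference between them and Egr1 was not tested.

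**Figure D5:**
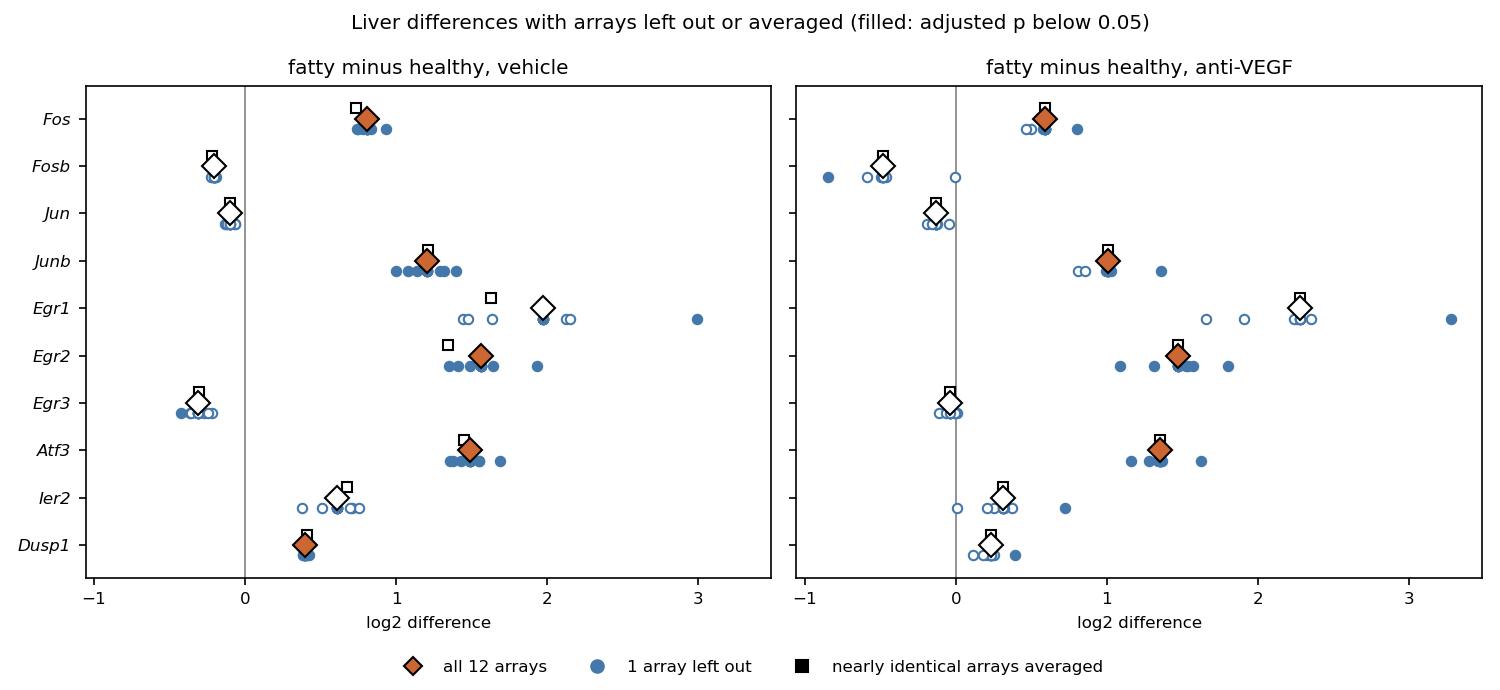
Fatty minus healthy liver difference of each member (horizontal axis, log2) under vehicle (left) and anti-VEGF (right), from all 12 arrays (diamonds), from each fit that left out 1 array (circles) and with nearly identical arrays averaged (squares); filled symbols have an adjusted p under 0.05. Egr2 and Atf3 stay filled in every fit that left out 1 array, the Egr1 circles run from 1.44 to 2.99 and from 1.66 to 3.28, and no square is filled.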

How the data were processed

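The 12 samples were measured on single-colour whole-transcript arrays. The values are log2 expression values the authors deposited, with nearly equal quartiles on all arrays; the log2 scale was read from their range, and the sources used here do not say how they were summarised, normalized or centred, nor on which build. Affymetrix Expression Console is named in the submitters' processing notes. Per the labels' protocols, total RNA was checked for integrity, amplified and labelled with biotin. Column medians were 4.88 to 4.99. No scanner background was used, so the number of arrays limits the precision.

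Names came from the platform annotation, where 23521 rows have 1 symbol; 1814 rows with several and 16010 with none were left out, and no symbol changed against RefSeq. A gene was tested when above 4.93, the table's median, on at least 3 arrays (13286 genes). All arrays entered a single fit with lmFit and eBayes of limma (version 3.58.1, R 4.3.3), a mean for each group, 8 residual and 2.40 prior degrees of freedom, 5 contrasts and Benjamini-Hochberg adjustment. The fit was tested on simulated data. Adjusted p-values in the text are limma's. The members and lists were chosen with earlier results of these data known.

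Named are the 10 members, up to 4 tested genes of each related list by smallest p per liver comparison, and the 3 genes nearest to Fos, Jun and Egr1. Between the vehicle groups the deviations of same-numbered arrays from their group means correlated (0.536, 0.701 and 0.549). Arrays 1 and 3 are nearly identical in both groups, so these values mostly reflect array 2 and cannot show that the numbers pair arrays. Between treatments in fatty liver the correlations were -0.486, 0.106 and 0.472. The labels state no pairing, and the replicate block was an alternative. The other alternatives were filters, the mean of a gene's rows, centring, quantile normalization, an intensity trend, array weights, only the groups compared, arrays left out, nearly identical arrays (SD of difference under 0.2) averaged, and the 4 arrays high in Xist left out.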

Additional observations from a re-analysis of the deposited data

How the results depend on the processing

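Of 1190 recomputed differences of single members, 1144 kept their side of the threshold, 24 came to pass, 21 no longer passed and 1 reversed. A change of sign where neither fit passed counts among the 1144, as for Egr1 between treatments. The reversal, a change of sign with a pass, was Fosb for anti-VEGF against vehicle in fatty liver, at 0.58 with array weights (adjusted p = 0.0234). With array weights 8 members passed between livers under vehicle (7 higher, 1 lower, beside 71.1% of genes), 7 under anti-VEGF (beside 74.4%) and 2 for anti-VEGF in fatty liver (beside 13.9%). With nearly identical arrays averaged the counts between livers were 0 under vehicle and 0 under anti-VEGF, with 721 and 510 genes passing in place of 6595 and 6084. Without the 4 vehicle arrays high in Xist, which leaves 1 array in each vehicle group assumed to vary like the rest, the vehicle count was 0 and 1057 genes passed; between treatments in healthy liver 754 genes and 0 members passed. Without both arrays that stand apart 7 members passed under anti-VEGF, beside 60.6% of genes. Both of these arrays lie towards the other liver for several members. Without vehicle array 2 of fatty liver 4 members were higher and 1 lower under vehicle, beside 35.4% of genes called. Without anti-VEGF array 1 of fatty liver 2 members were higher under anti-VEGF, beside 35.5% of genes called. Leaving out 1 array gave 4 to 7 members under vehicle, 2 to 7 under anti-VEGF, and 0 in the treatment and interaction contrasts. With the replicate block 6 members passed under vehicle and 5 under anti-VEGF. No call other than those of Egr3 under vehicle and Egr1 under anti-VEGF changed. The labels do not say whether the replicate numbers pair arrays. The cause of these shifts was not tested, beyond the fewer samples that averaging and leaving out imply. Centring or quantile normalization changed no member's call. The median of all genes, -0.12 and -0.13 between livers, was not subtracted.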

Other observations

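The largest differences between livers among the other immediate early genes, chosen after their values were seen, were those of Btg2, Nr4a1 and Nr4a3. Btg2, an antiproliferative gene, was 6.69, 8.98 and 6.65 with vehicle and 6.89, 6.73 and 6.61 with anti-VEGF in healthy liver, and 10.43, 10.83 and 10.41 with vehicle and 10.89, 10.66 and 8.96 with anti-VEGF in fatty liver. Its differences were 3.12 (SE 0.62, adjusted p = 0.00291) and 3.43 (SE 0.62, adjusted p = 0.00181). Nr4a1, an orphan nuclear receptor gene induced by T cell receptor signals and in macrophages, differed by 2.84 (SE 0.68, adjusted p = 0.00675) and 2.62 (SE 0.68, adjusted p = 0.0111). Its relative Nr4a3 differed by 3.01 under vehicle (SE 0.76, adjusted p = 0.00861) and by 1.97 under anti-VEGF (SE 0.76, adjusted p = 0.0538), where anti-VEGF array 3 of fatty liver, at 5.91, lay among the healthy liver arrays. Myc, an immediate early gene as well, was lower in fatty liver under both treatments, by log2 differences of -0.62 (SE 0.14, adjusted p = 0.00560) and -0.74 (SE 0.14, adjusted p = 0.00238). Vehicle array 2 of healthy liver was the highest healthy liver array for Btg2, Nr4a1 and Nr4a3, as it was for Egr1.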
